A study of Mus musculus with 16 samples.

Results

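The genes described here are 10 mouse genes of simple epithelia: the keratin genes Krt7, Krt8, Krt18 and Krt19, the junction and anchoring genes Dsp and Lad1, the caveola genes Cavin1 and Cav1, and the membrane genes Emp1 and Anxa3. They were found by symbol among the 52636 gene rows of a count table of 16 RNA-seq libraries. The set was selected on measured values of these same libraries: Krt8, Cavin1 and Lad1 had stood among the leading genes of the comparisons of rev with 0h, rev with 4h or 4h with 2h, and Emp1 led the difference between clones in the rev against 4h change. For the other 6 the contrast behind the choice is not stated. Their values between the groups are therefore given as a description, with no p-value.

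Keratins are the intermediate filament proteins of epithelial cells and assemble as obligate pairs of a type I chain (Krt18, Krt19) with a type II chain (Krt7, Krt8). The pair Krt8 and Krt18 is the first to appear in the embryo, where it marks the trophectoderm and other simple epithelia, and it is scarcely expressed in pluripotent cells. Keratin filaments are tied to desmosomes through desmoplakin (Dsp). Caveolae are small pits of the plasma membrane built from caveolins and cavins.

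The study used mouse RSC cells, a pluripotent stem cell type, from the CRAFR26 line, which carries a c-RAF construct that tamoxifen activates, so that the MEK and ERK kinases below it can be switched on. All cells were kept in N2B27 medium with 2 µM IWP2, 1 µM of the MEK inhibitor PD03 and 1000 U/ml LIF, and in all groups the MEK inhibitor was replaced by 250 nM of the FGF receptor inhibitor PD17 for 48 h. The 0h group was not induced, the 2h and 4h groups received 250 nM 4-hydroxytamoxifen for 2 h or 4 h, and the rev group received it for 4 h with the MEK inhibitor present for 2 h. Each group held 4 libraries of ribosomal RNA-depleted total RNA, 2 from clone 4 and 2 from clone 8. The 2 clones are the only biological units the labels name, and nothing says that libraries 1 and 2 of a clone came from separate cultures, so the p-values measure the spread between these libraries, which may be technical. In bulk RNA, fewer cells expressing a gene and less RNA per cell cannot be told apart.

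The libraries held 4.31 to 10.4 M counts, of which 9 very abundant features took 47.1% to 79.7%, leaving 1.25 to 5.41 M for all other genes. Levels are counts per 1 M counts (CPM), scaled by the TMM factors of edgeR over the 12742 genes that passed its filter on low counts. A count of 0 allows up to 3 counts, which is 0.210 to 0.908 CPM depending on the library, and the thinnest library was number 1 of clone 8 in the rev group. The 10 listed pluripotency markers were all expressed, with a summed level of 1318 to 2265 CPM. Of 9 listed ERK response genes, 8 rose at 2 h, 8 had risen at 4 h and 7 fell in rev against 4h (edgeR quasi-likelihood test, adjusted p under 0.05). Dusp6, a phosphatase that ERK induces and that removes phosphate from ERK, fell by 5.03 on the log2 scale in rev against 4h.

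Coordinates are those of GRCm38. Krt8 (chr15:101996698-102004482, minus strand) and Krt18 (chr15:102028180-102032027, plus strand) lie head to head with 23.7 kb between their starts. Krt7 (chr15:101411043-101430313, plus strand) lies on the same chromosome, and Krt19 is at chr11:100140810-100148665 on the minus strand. Dsp is at chr13:38151294-38198577 and Lad1 at chr1:135818598-135833342, both on the plus strand. Cavin1 is at chr11:100956733-100970887 on the minus strand and Cav1 at chr6:17306335-17341452 on the plus strand. Emp1 is at chr6:135362545-135383173 and Anxa3 at chr5:96793339-96845966, both on the plus strand.

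Promoter windows of 300 bases, from 250 before to 50 after the annotated start, were taken from RefSeq on GRCm38.p6 and were matched for 8 of the 10 genes. Krt19 and Anxa3 had no entry. The 4 windows below show 3 kinds of pattern: the keratin pair that alternated between groups, Cavin1 with its 4 h peak in clone 4, and Emp1, whose changes had opposite signs in the clones. Capitals mark matches to the AP-1 motif TGANTCA in Emp1 and to the TEAD motif GGAATG, read on the other strand, in Cavin1. The window of Krt8 is chr15:102004293-102004592 (minus strand), that of Krt18 chr15:102027966-102028265 (plus strand), that of Cavin1 chr11:100970566-100970865 (minus strand) and that of Emp1 chr6:135362681-135362980 (plus strand).
Krt8: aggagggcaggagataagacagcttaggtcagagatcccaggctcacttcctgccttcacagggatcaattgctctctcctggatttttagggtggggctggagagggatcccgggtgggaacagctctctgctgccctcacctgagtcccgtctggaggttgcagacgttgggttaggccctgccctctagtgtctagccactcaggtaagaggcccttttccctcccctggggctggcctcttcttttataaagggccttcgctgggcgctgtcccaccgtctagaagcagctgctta
Krt18: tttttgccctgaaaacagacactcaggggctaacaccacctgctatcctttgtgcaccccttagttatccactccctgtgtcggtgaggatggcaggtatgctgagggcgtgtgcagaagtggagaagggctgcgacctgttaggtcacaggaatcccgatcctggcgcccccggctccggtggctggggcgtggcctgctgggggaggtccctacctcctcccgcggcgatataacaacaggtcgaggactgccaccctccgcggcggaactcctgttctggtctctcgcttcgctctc
Cavin1: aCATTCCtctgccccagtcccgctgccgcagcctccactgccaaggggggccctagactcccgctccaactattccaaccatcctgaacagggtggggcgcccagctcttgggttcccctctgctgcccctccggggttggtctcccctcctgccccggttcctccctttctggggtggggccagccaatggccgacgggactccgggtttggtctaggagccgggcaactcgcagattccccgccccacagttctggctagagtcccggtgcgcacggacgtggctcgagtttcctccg
Emp1: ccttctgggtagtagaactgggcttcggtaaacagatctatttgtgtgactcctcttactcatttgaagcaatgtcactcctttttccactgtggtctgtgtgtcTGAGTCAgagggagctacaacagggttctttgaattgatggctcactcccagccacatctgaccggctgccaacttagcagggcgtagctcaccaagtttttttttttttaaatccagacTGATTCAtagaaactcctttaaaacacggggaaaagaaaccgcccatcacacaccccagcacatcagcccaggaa

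The 5 motifs searched on both strands were AP-1 (TGANTCA), TEAD (GGAATG), ETS (CCGGAA), the SRF CArG box and the GC box (GGGCGG), and their patterns do not overlap. Emp1 held AP-1 matches at -145 to -139 and at -25 to -19 from the start, a motif found in 7.81% of the 32851 windows in the table. It also held a GC box match at 14 to 19, a motif found in 35.7% of windows. A second Emp1 window, chr6:135367243-135367542, matched none of the 5. Cavin1 held a TEAD match at -249 to -244 (14.7% of windows) and a GC box match at -9 to -4. Its other window starts 2 bases away and holds the same matches. The windows of Krt8, Krt18 and Lad1 matched none of the 5, and no window of these genes held an ETS (14.9%) or CArG box (1.63%) match. A match is a string of letters, not a measured binding site.

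The 4 keratin genes shared an alternating pattern: low in uninduced cells, higher after 2 h of induction, low again at 4 h, and high again in rev. Krt8, the main type II chain of simple epithelia, measured 1.60 and 2.27 CPM in the 0h libraries of clone 4, 12.7 and 17.0 CPM at 2h, 4.00 and 2.79 CPM at 4h, and 17.6 and 17.2 CPM in rev. In clone 8 its levels were 0.311 and 1.72 CPM at 0h, 1.90 and 1.61 CPM at 2h, 0.804 and 0.766 CPM at 4h, and 2.72 and 3.84 CPM in rev. In clone 4 the 2h and rev libraries stood above all 0h and 4h libraries with no overlap, while in clone 8 a 0h library at 1.72 CPM lay between the 2h libraries. With the clone as a term in the model, the log2 change of Krt8 was 2.23 (SE 0.34) at 2h against 0h, -1.77 (SE 0.32) at 4h against 2h, and 2.24 (SE 0.32) at rev against 4h.

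**Figure D1:**
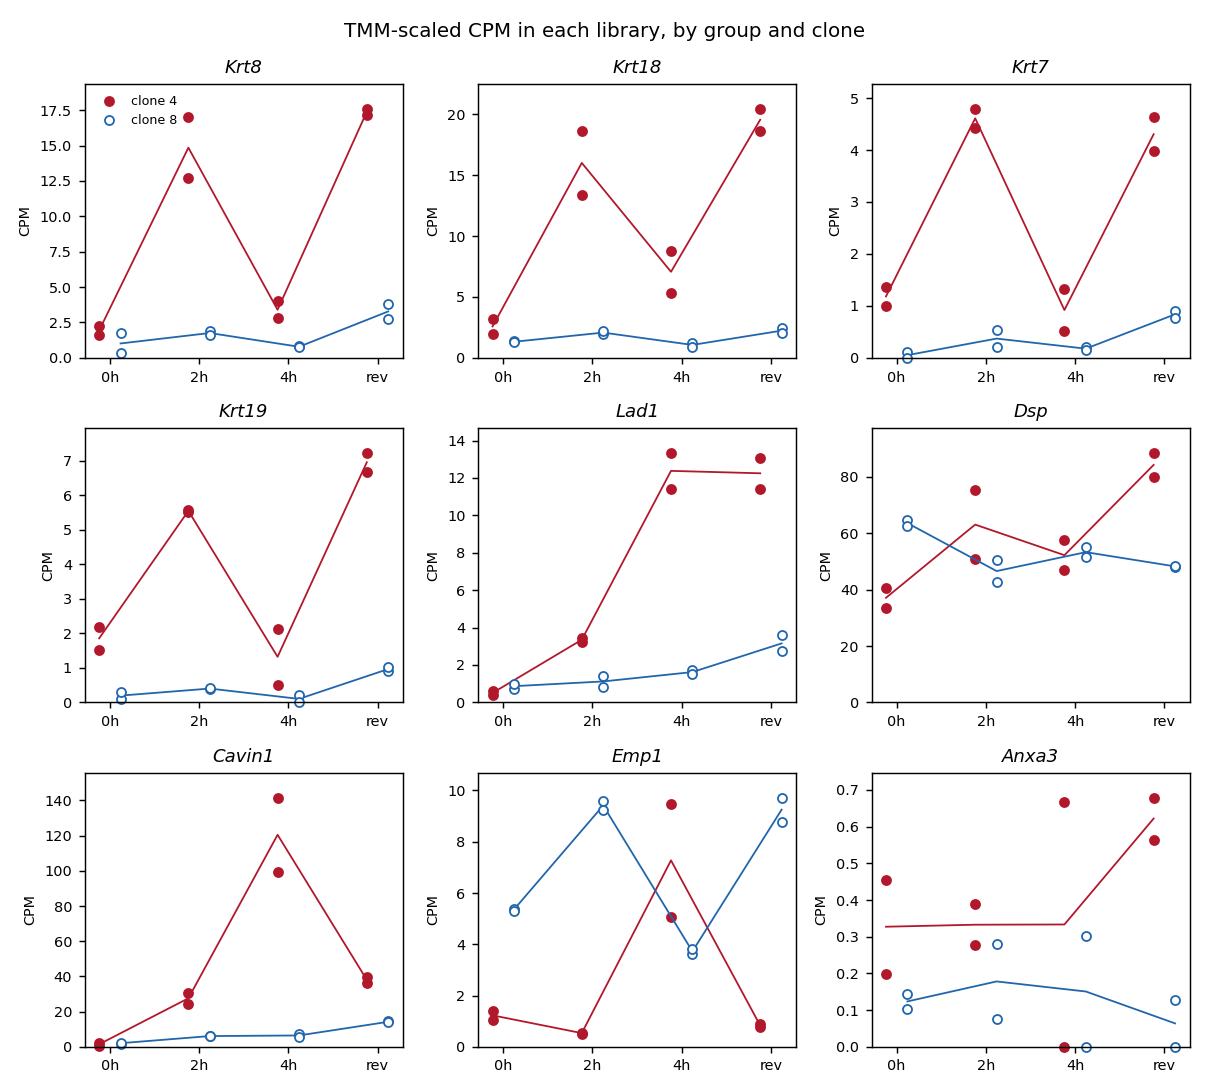
TMM-scaled CPM of the 9 expressed genes in each of the 16 libraries, by group on the horizontal axis, with filled points for clone 4, open points for clone 8 and lines through the mean of the 2 libraries of a clone (vertical axes differ between panels). The 4 keratin genes were high at 2h and in rev in clone 4 (Krt8 12.7 to 17.6 CPM) and lower in all clone 8 libraries, Cavin1 peaked at 4h in clone 4, and the Emp1 lines of the clones crossed.

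Krt18, the type I partner of Krt8, followed the same course. In clone 4 it measured 3.20 and 1.97 CPM at 0h, 13.4 and 18.7 CPM at 2h, 8.80 and 5.33 CPM at 4h, and 18.6 and 20.5 CPM in rev. Its clone 8 libraries ran from 0.919 CPM at 4h to 2.42 CPM in rev, so that the highest clone 8 library was below 1 of the 2 clone 4 libraries at 0h. The log2 changes of Krt18 were 1.93 (SE 0.32) at 2h against 0h, -1.04 (SE 0.28) at 4h against 2h and 1.32 (SE 0.28) at rev against 4h. At 4h the clone 4 libraries of both Krt18 and Krt8 stayed above those at 0h. In clone 8 the Krt18 libraries at 4h lay below those at 0h, and those of Krt8 overlapped. With the clone as a term, the log2 change from 0h to 4h was 0.89 (SE 0.36) for Krt18 and 0.45 (SE 0.42) for Krt8.

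Krt7 is a second type II chain and Krt19 a short type I chain that lacks most of the tail, both of simple and ductal epithelia. Krt7 in clone 4 stood at 0.999 and 1.36 CPM at 0h, 4.80 and 4.42 CPM at 2h, 1.33 and 0.508 CPM at 4h, and 4.63 and 3.98 CPM in rev, while clone 8 gave 0 to 7 reads per library. Krt19 in clone 4 stood at 2.20 and 1.52 CPM at 0h, 5.58 and 5.53 CPM at 2h, 2.13 and 0.508 CPM at 4h, and 7.23 and 6.69 CPM in rev, with 0 to 8 reads in each clone 8 library. In clone 4 neither gene overlapped between the 2h or rev libraries and the 0h or 4h libraries. At 4h against 0h the log2 change was 0.04 (SE 0.52) for Krt7 and -0.30 (SE 0.46) for Krt19, and at rev against 4h it was 2.03 (SE 0.40) and 2.30 (SE 0.36).

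The reads could in part belong to near copies. Krt8 is 98.6% identical to the pseudogene Krt8-ps over 941 bases, and that pseudogene took 5 counts in all 16 libraries together. Krt18 is 90.5% identical over 1267 bases to Gm5200, which took 0 counts. Stretches of Krt7 of up to 191 bases resemble 94 other genes. Some of these are abundant: Tnks2 took 29524 and Bclaf1 26057 counts in all 16 libraries together, beside 0 to 41 reads of Krt7 per library. The part of such genes in the Krt7 reads was not tested. Of the Krt7 exon length 1.09%, and of that of Krt8 5.16%, overlap a gene on the opposite strand. Whether the counting used strand is not given in the sources used here, so reads of such pairs cannot be told apart.

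Lad1 and Dsp are the junction and anchoring genes of the set. Lad1 (ladinin) is a basement membrane and actin-associated protein of epithelia, and it departed from the keratins by staying high at 4 h. Its clone 4 libraries measured 0.400 and 0.606 CPM at 0h, 3.24 and 3.46 CPM at 2h, 13.3 and 11.4 CPM at 4h, and 11.4 and 13.1 CPM in rev. In clone 8 Lad1 stood at 0.726 and 1.01 CPM at 0h, 0.836 and 1.40 CPM at 2h, 1.71 and 1.53 CPM at 4h, and 2.72 and 3.58 CPM in rev. Thus the 4h and rev libraries of clone 4 overlapped each other and lay above all others, and in clone 8 the rev libraries were the highest. Lad1 had a log2 change of 2.92 (SE 0.43) at 4h against 0h, 0.29 (SE 0.30) at rev against 4h and 1.73 (SE 0.32) at rev against 2h.

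Dsp, the desmosomal plaque protein that binds keratin filaments, was the highest of the set per length at 0h and changed little when the clones were pooled. Its clone 4 libraries measured 40.6 and 33.6 CPM at 0h, 50.7 and 75.5 CPM at 2h, 57.5 and 47.0 CPM at 4h, and 80.1 and 88.5 CPM in rev. In clone 8 the Dsp levels were 64.7 and 62.5 CPM at 0h, 42.8 and 50.4 CPM at 2h, 51.5 and 55.1 CPM at 4h, and 48.1 and 48.4 CPM in rev. The 0h libraries were the lowest of clone 4 and the highest of clone 8, and the pooled log2 changes of Dsp were 0.08 (SE 0.21) at 2h against 0h and 0.37 (SE 0.22) at rev against 0h. Of the Dsp exon length 5.17% overlaps Gm10129 on the opposite strand.

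Cavin1, the coat protein that caveolae need for their shape, was the gene of the set with the widest range. In clone 4 it measured 2.20 and 0.758 CPM at 0h, 24.5 and 30.7 CPM at 2h, 142 and 99.3 CPM at 4h, and 36.5 and 39.7 CPM in rev. In clone 8 it measured 1.87 and 2.30 CPM at 0h, 6.23 and 6.03 CPM at 2h, 7.44 and 5.51 CPM at 4h, and 14.5 and 13.9 CPM in rev. Within each clone all induced libraries were above the 0h libraries, but the top group was 4h in clone 4 and rev in clone 8. The pooled log2 change of Cavin1 was 4.51 (SE 0.57) at 4h against 0h and -0.78 (SE 0.40) at rev against 4h, a value that joins -1.68 (SE 0.13) in clone 4 with 1.09 (SE 0.23) in clone 8.

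Cav1, the principal caveolin and partner of Cavin1 in the caveolar coat, had 0 counts in all 16 libraries, which allows a level of up to 0.210 CPM in the deepest library and 0.908 CPM in the thinnest, for counting error only. Cavin1 RNA was therefore measured in libraries without a read of Cav1.

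Emp1, a tetraspan membrane glycoprotein of the PMP22 family, had log2 changes of opposite sign in the clones, as Dsp did. Its clone 4 libraries measured 1.40 and 1.06 CPM at 0h, 0.519 and 0.553 CPM at 2h, 9.47 and 5.08 CPM at 4h, and 0.791 and 0.873 CPM in rev. Its clone 8 libraries measured 5.40 and 5.32 CPM at 0h, 9.57 and 9.25 CPM at 2h, 3.62 and 3.83 CPM at 4h, and 8.78 and 9.72 CPM in rev. The 4h libraries were the highest of clone 4 and the lowest of clone 8, with no overlap within either clone. From 2h to 4h the log2 change of Emp1 was 3.82 (SE 0.39) in clone 4 and -1.34 (SE 0.22) in clone 8. The pooled change at 4h against 0h, 1.08 (SE 0.66), was -0.04 without library 1 of clone 4 at 4h.

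Anxa3, an annexin that binds phospholipid in the presence of calcium, gave 0 to 7 reads per library and did not pass the filter on low counts. Its mean was 0.225 CPM at 0h, 0.255 CPM at 2h, 0.242 CPM at 4h and 0.343 CPM in rev. The rev libraries of clone 4 held 5 and 7 reads (0.565 and 0.679 CPM) and those of clone 8 held 0 and 1. No difference of Anxa3 was tested.

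Levels of different genes were compared per kb of exon. At 0h the order by mean CPM per kb over the 4 libraries was Dsp (5.21 ± 1.61, SD), Krt18 (1.36 ± 0.615), Krt8 (0.754 ± 0.424), Emp1 (0.555 ± 0.402), Krt19 (0.553 ± 0.540), Cavin1 (0.496 ± 0.197), Lad1 (0.201 ± 0.0745), Krt7 (0.0875 ± 0.0951), Anxa3 (0.0619) and Cav1 (0). The gaps between Dsp and Krt18 and between Cavin1 and Lad1 exceeded the sum of the SDs of the neighbours. Krt18, Krt8, Emp1, Krt19 and Cavin1 did not differ from their neighbours beyond that spread, nor did Lad1 from Krt7. This pooled order hides a difference between the clones at 0h. There Krt19 averaged 1.00 CPM per kb in clone 4 and 0.105 in clone 8, and Emp1 0.207 and 0.902. After induction the order differed between the clones as well. At 4h Cavin1 led in clone 4 with a mean of 33.6 CPM per kb over Dsp at 5.41, while in clone 8 Dsp led with 5.52 over Cavin1 at 1.81. In rev the order in clone 4 began with Krt18 (13.6 CPM per kb), Cavin1 (10.6), Krt8 (8.88) and Dsp (8.72). In clone 8 it began with Dsp (4.995), Cavin1 (3.97), Krt8 (1.68), Emp1 (1.56) and Krt18 (1.55).

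Counts of calls are given beside the share of all 12742 tested genes called in the same comparison (edgeR quasi-likelihood test, Benjamini-Hochberg adjusted p under 0.05, clone as a term), and nothing is read from them, since these contrasts served to choose the genes. Of the 8 tested genes (Cav1 and Anxa3 did not pass the filter), 6 were called higher at 2h against 0h, against 17% of all genes called. At 4h against 0h, Cavin1 and Lad1 were called higher (12.9% of all genes called). At 4h against 2h, Cavin1 and Lad1 were called higher and the 4 keratins lower (12.1%). At rev against 4h the 4 keratins were called higher and none lower (9.61%). At rev against 0h the 4 keratins, Lad1 and Cavin1 were called higher (10.5%), and at rev against 2h only Lad1 was (1.78%).

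The median log2 change of the 8 genes was 1.70 at 2h against 0h, where that of all tested genes was near 0. As with the calls, nothing is read from this in genes chosen on these libraries. A model without the clone term called 0 of these 8 genes at 2h against 0h, at 4h against 2h, at rev against 4h and at rev against 2h, and 1 at rev against 0h. The 4h against 2h call of Krt18 was lost without library 2 of clone 4 at 2h or at 4h, that of Lad1 without library 1 of clone 4 at 4h, and that of Cavin1 without any 1 of the 4 libraries of clone 4 at 2h and 4h. At 2h against 0h the Krt19 call was lost without library 2 of clone 4 at 0h, and the Lad1 call without any 1 of 7 libraries: both of clone 4 at 0h, all 4 at 2h, and library 1 of clone 4 in rev.

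**Figure D2:**
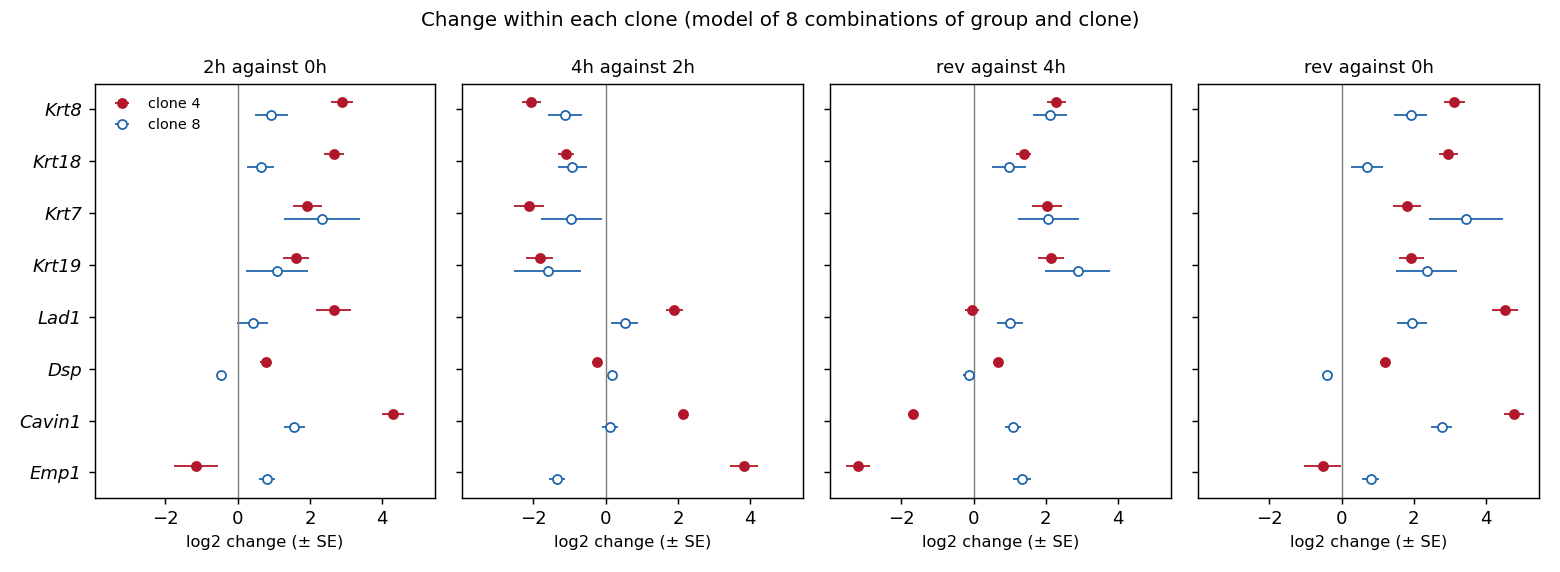
Log2 change (horizontal axis, with SE bars) of the 8 tested genes within clone 4 (filled) and clone 8 (open) in 4 comparisons, from the model of 8 combinations of group and clone. The keratin points of both clones lie on the same side of 0 in each panel, with larger values in clone 4 for Krt8 at 2h against 0h (2.90 against 0.93), while Emp1 lies on opposite sides in all panels, and Cavin1 at rev against 4h and Dsp in all panels do so as well.

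The alternation of the keratins went with a broader split of the libraries. The summed level of the 4 keratins in clone 4 was 7.12 to 7.99 CPM at 0h, 36.4 to 45.6 CPM at 2h, 9.14 to 16.3 CPM at 4h and 48.1 to 48.3 CPM in rev. In clone 8 the sum was 1.87 to 3.31 CPM at 0h, 4.42 to 4.79 CPM at 2h, 1.84 to 2.41 CPM at 4h and 6.96 to 7.68 CPM in rev. A principal component analysis of 500 genes, with the 10 genes left out, placed all 2h and rev libraries at positive scores of the third component (1.88 to 13.0) and all 0h and 4h libraries at negative scores (-10.7 to -2.70). That component held 8.34% of the variance. The 2h and rev groups are those sampled 2 h after the last addition of a compound, and the labels name no batch. The part of this component in the keratin values was not tested.

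**Figure D3:**
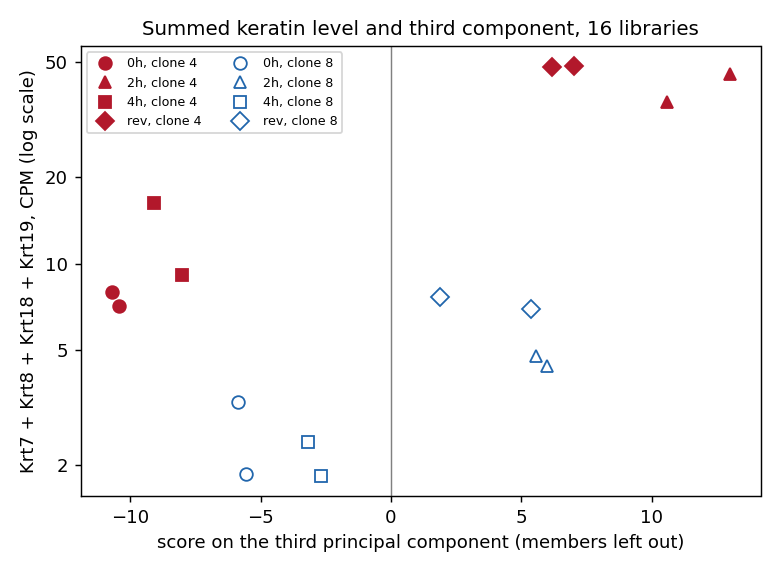
Summed CPM of Krt7, Krt8, Krt18 and Krt19 (vertical axis, log scale) against the score on the third principal component computed without the 10 genes (horizontal axis), 1 point per library, with shapes for the groups, filled for clone 4 and open for clone 8. Within each clone the 4 libraries of 2h and rev lie right of 0 and above the 4 libraries of 0h and 4h, and in clone 4 they reach 36.4 to 48.3 CPM against at most 16.3 CPM.

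Markers of other cell types that use these keratins were read in the same libraries. The summed level of 10 trophectoderm markers in clone 4 was 18.6 to 20.6 CPM at 0h, 33.5 to 35.1 CPM at 2h, 31.3 to 31.5 CPM at 4h and 33.7 to 34.6 CPM in rev, and in clone 8 it stayed between 12.7 and 22.4 CPM. At 2h against 0h, 3 of the 6 tested rose, where 17% of all tested genes were called (edgeR quasi-likelihood test). They were Eomes, a T-box factor of trophoblast, by 1.07 (log2, adjusted p = 0.0022), Hand1, a factor of trophoblast giant cells, by 2.07 (adjusted p = 0.0036), and Plac1, a placental gene, by 2.35 (adjusted p = 0.0068). The defining factor Cdx2 had at most 7 counts in a library and the giant cell hormone Prl3d1 had 0 in all. At 4h against 2h, 2 of the 6 fell (12.1% of all genes called): Plac1 by 1.96 (adjusted p = 0.021) and Esx1, a placental homeobox gene, by 1.43 (adjusted p = 0.0068). At rev against 4h Esx1 was the only call of the list (9.61% of all genes called) and rose by 1.48 (adjusted p = 0.0058). Plac1 had a log2 change of 1.64 there (adjusted p = 0.06). Plac1 and Esx1 thus had the signs of the keratins in these comparisons. Eomes had the opposite signs after 2h, with log2 changes of 0.17 at 4h against 2h and -0.47 at rev against 4h, neither called. The sum over the list in clone 4 at 4h was near that at 2h.

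The 11 primitive endoderm markers summed in clone 4 to 248 to 256 CPM at 0h and 254 to 264 CPM at 2h. There the sum was highest at 4h, 327 to 371 CPM, where the keratins were low, and was 261 to 274 CPM in rev. In clone 8 it was 369 to 379 CPM at 0h and 408 to 432 CPM at 2h. It was lowest there at 4h, 362 to 364 CPM, and 406 to 440 CPM in rev. Of the 11, 7 were tested, with 2 higher and 0 lower at 2h against 0h (17% of all genes called). There were 0 higher and 2 lower at 4h against 2h (12.1%), and 3 higher and 0 lower at rev against 4h (9.61%). Col4a1, a basement membrane collagen chain, rose by 0.56 at 2h against 0h (adjusted p = 0.0016), fell by 0.93 at 4h against 2h (adjusted p = 6.8e-05) and rose by 0.96 at rev against 4h (adjusted p = 1.6e-05). Dab2, an endocytic adaptor of that lineage, rose by 1.27 at 2h against 0h (adjusted p = 0.03), fell by 1.93 at 4h against 2h (adjusted p = 0.0079) and rose by 2.17 at rev against 4h (adjusted p = 0.0035). Lamb1, a laminin chain, differed from these: it rose by 0.81 at 4h against 0h (adjusted p = 0.046) and had a log2 change of -0.55 at rev against 4h (adjusted p = 0.18). The summed visceral endoderm markers stayed at 1.27 to 3.72 CPM and those of fibroblasts at 0.613 to 3.60 CPM. The part of other cell types in the keratin values was not tested.

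The clones were then compared in measures that are not known to have served the choice. Before induction, clone 8 against clone 4 gave 2 genes higher and 2 lower of the 8, where 11.7% of all tested genes were called. Emp1 was higher in clone 8 by 2.14 (log2, SE 0.36, adjusted p = 8.3e-05) and Dsp by 0.79 (SE 0.14, adjusted p = 0.00018), with no overlap between the clones (edgeR quasi-likelihood test). Krt7 (adjusted p = 0.0028) and Krt19 (adjusted p = 0.0019) were lower in clone 8, where the 2 libraries held 1 and 3 counts in sum against 14 and 21 in clone 4. Scaled to library size, the ratio of clone 8 to clone 4 was 0.0499 for Krt7 (95% interval 0.00118 to 0.328) and 0.0999 for Krt19 (0.0191 to 0.334), by an exact interval for counting error only. Krt8 (log2 difference -1.11, adjusted p = 0.18), Krt18 (-0.91, adjusted p = 0.18), Cavin1 (0.56, adjusted p = 0.53) and Lad1 (0.69, adjusted p = 0.57) did not pass. The call of Krt7 was lost without library 2 of clone 4 at 0h and under DESeq2, that of Krt19 without library 1 of clone 8 at 0h, and that of Dsp with library totals as the scale (adjusted p = 0.13). Krt8 was called without library 2 of clone 8 at 0h (adjusted p = 0.015).

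The response to 2 h of induction was lower in clone 8 for 5 of the 8 genes, in a comparison in which 7.94% of all tested genes were called. The difference of the log2 changes, clone 8 minus clone 4, was -2.73 for Cavin1 (SE 0.51, adjusted p = 0.00067), where clone 4 changed by 4.30 and clone 8 by 1.57. For Dsp the difference was -1.22 (SE 0.19, adjusted p = 8.4e-05), with 0.77 in clone 4 and -0.45 in clone 8, and it was lost with library totals as the scale (adjusted p = 0.25). Krt18 differed by -2.02 (SE 0.51, adjusted p = 0.011), Krt8 by -1.96 (SE 0.63, adjusted p = 0.048) and Lad1 by -2.25 (SE 0.71, adjusted p = 0.045). The group contrasts that served to choose Krt8, Cavin1 and Lad1 can share libraries with this comparison, so their p-values are no independent test. For Dsp and Krt18 the contrast behind the choice is not stated. Over the alternatives the adjusted p of Krt8 ran from 0.0058 to 0.867 and that of Lad1 from 0.0323 to 0.195, and each was lost under 13 of them. Emp1 (1.96, adjusted p = 0.052), Krt19 (-0.52, adjusted p = 0.84) and Krt7 (0.41, adjusted p = 0.84) did not pass, and the low counts of the last 2 in clone 8 leave SEs near 1.

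The libraries whose omission ended these 2 h calls were several. For Krt8 they were library 1 and 2 of clone 4 and library 2 of clone 8 at 0h, library 2 of clone 4 and both of clone 8 at 2h, both of clone 8 at 4h and both of clone 4 in rev. For Lad1 they were all 4 at 0h, both of clone 4 and library 1 of clone 8 at 2h, library 1 of clone 8 at 4h and both of clone 4 in rev. For Krt18 they were library 2 of clone 4 and library 1 of clone 8 at 0h. The count of 5 genes was 2 without library 2 of clone 4 at 0h and 3 without any 1 of 8 others of those named.

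At 4 h the clones differed in the change from 0h for 4 of the 8 genes, where 5.72% of all tested genes were called. Cavin1 differed by -4.76 (SE 0.53, adjusted p = 2.5e-07), since clone 4 changed by 6.45 and clone 8 by 1.69 (log2). Lad1 differed by -3.62 (SE 0.70, adjusted p = 0.00076), with 4.56 in clone 4 and 0.94 in clone 8. Emp1 differed by -3.20 (SE 0.45), with 2.67 in clone 4 and -0.53 in clone 8. No p is given for Emp1, since the contrast that served to choose it compared the clones in the same 4h libraries. Cavin1 and Lad1 were chosen on group contrasts that share libraries with this comparison, so their p-values are no independent test. Dsp differed by -0.78 (SE 0.20, adjusted p = 0.013), a call lost with library totals as the scale and without library 2 of clone 4 or 1 of clone 8 at 0h, or library 1 of clone 4 or of clone 8 at 4h. Krt18 (-1.85, adjusted p = 0.053), Krt8 (-1.05, adjusted p = 0.55), Krt19 (-0.30, adjusted p = 0.95) and Krt7 (1.59, adjusted p = 0.67) did not pass. These 2 h and 4 h comparisons share the 0h libraries. The listed ERK response genes moved the same way: 3 of 9 were lower in clone 8 than in clone 4 in the change to 2h and 6 of 9 in the change to 4h, where their median difference was -2.36. At 4h Dusp6 averaged 77.0 CPM in clone 4 and 21.1 CPM in clone 8, and its change from 0h differed by -2.60 (SE 0.35, adjusted p = 4.9e-06).

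In rev against 4h, a contrast that had served to choose Emp1, 2 genes were called higher and 1 lower in clone 8 relative to clone 4, where 13.2% of all tested genes were called. The log2 difference between the clones was 4.53 for Emp1, 2.77 for Cavin1 and -0.81 for Dsp. The keratins changed alike in sign, with Krt8 at 2.28 (SE 0.26) in clone 4 and 2.12 (SE 0.48) in clone 8.

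Genes that act with these were read from 7 lists, which hold 113 genes, 71 of them tested. The lists were chosen with earlier results of these data known. At 2h against 0h 8 rose and 4 fell, which is 16.9% of the 71 beside 17% of all tested genes. At 4h against 0h 16 rose and 10 fell (36.6% beside 12.9%), at rev against 4h 5 rose and 6 fell (15.5% beside 9.61%), and at rev against 0h 7 rose and 1 fell (11.3% beside 10.5%). Their median log2 change was 0.05, -0.07, 0.12 and 0.10 in these comparisons, and that of all tested genes was near 0 in each. The median of the 8 genes at rev against 0h was 2.14. That contrast was among those used to choose them, so nothing is read from its distance to the lists.

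Of 23 other keratin genes only 2 were tested, and 0 were called in any comparison between groups by edgeR, with Krt42 at a log2 change of 0.68 at rev against 2h (unadjusted p = 0.0041, adjusted p = 0.11). In 17 of the 23 no library had more than 3 counts. Of 20 genes of desmosomes and hemidesmosomes, the junctions that hold keratin filaments, 16 were tested. Jup, the plakoglobin that links desmosomal cadherins to Dsp, rose by 0.47 at 2h (adjusted p = 0.0016), 0.70 at 4h (adjusted p = 4.4e-05) and 0.57 in rev (adjusted p = 0.00062), each against 0h. Plec, the plectin that crosslinks intermediate filaments, rose by 1.61 at 4h against 0h (adjusted p = 0.0053) and Perp, a tetraspan protein of desmosomes, by 1.14 (adjusted p = 0.039). Itga6, a hemidesmosomal integrin chain, fell by 0.46 at 4h against 0h (adjusted p = 0.0038).

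Plec went in clone 4 from a mean of 81.5 CPM at 0h to 580 CPM at 4h and was 191 CPM in rev, while in clone 8 it was 59.4, 63.9 and 81.2 CPM. The 4h against 0h difference between clones was -2.74 for Plec (SE 0.22, adjusted p = 1.8e-10) and -1.54 for Perp (SE 0.36, adjusted p = 0.0064). Like Cavin1, both were highest in the 4h libraries of clone 4.

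Of 10 listed caveola genes other than Cavin1 and Cav1, 6 were tested, with Ehd1 at 0.24 (adjusted p = 0.031) the 1 call at 2h against 0h. Ehd1 and Ehd4 are ATPases of the membrane at the neck of caveolae and of recycling endosomes. At 4h against 0h Ehd4 rose by 0.42 (adjusted p = 0.046) and Pacsin3, a membrane-bending protein, fell by 1.19 (adjusted p = 0.018). Cav2 and Cavin2, the further coat proteins, had at most 1 count in a library.

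Of 14 annexins and their S100 partners, 11 were tested, and 4 rose at 4h against 0h with 0 falling. They were S100a6 by 2.29 (adjusted p = 0.0014), Anxa2 by 1.89 (adjusted p = 0.00021), S100a10 by 1.29 (adjusted p = 0.0049) and S100a11 by 0.96 (adjusted p = 0.014). Anxa2 and S100a10 form a complex at the plasma membrane. Anxa2 was also higher at 2h (1.24, adjusted p = 0.0064) and in rev (1.84, adjusted p = 0.00057), whereas S100a10 fell by 0.93 at rev against 4h (adjusted p = 0.034). In clone 4 S100a10 went from a mean of 7.89 CPM at 0h to 34.6 CPM at 4h and 11.5 CPM in rev, and in clone 8 it stayed between 9.54 and 11.9 CPM.

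**Figure D4:**
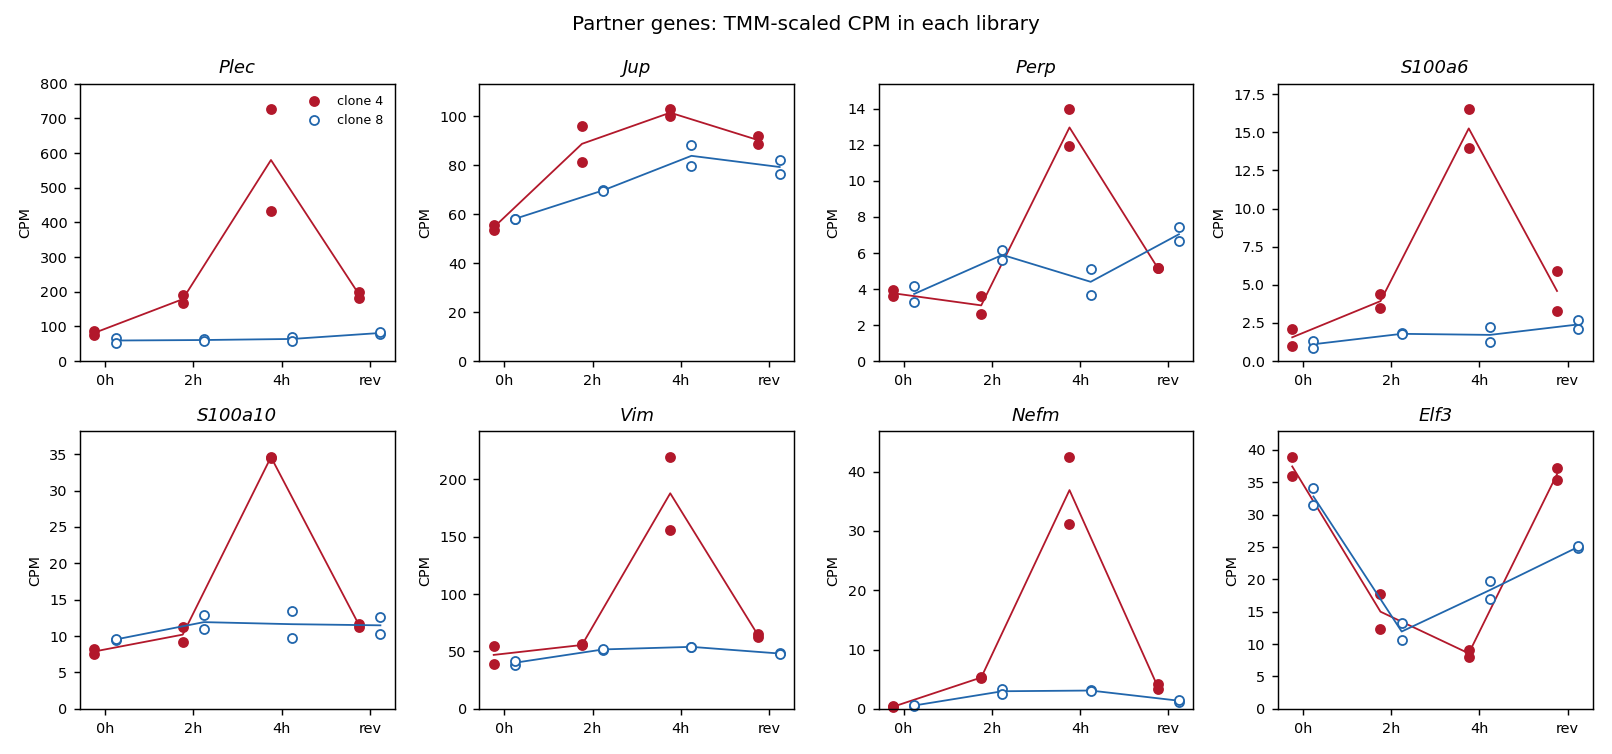
TMM-scaled CPM of 8 genes of the partner lists in each library, by group (horizontal axis) with filled points for clone 4, open points for clone 8 and lines through clone means. Plec, S100a6, S100a10, Vim and Nefm were highest at 4h in clone 4 (Plec mean 580 CPM) and flat or low in clone 8. Perp was also highest at 4h in clone 4, but in clone 8 its mean went from 3.73 CPM at 0h to 7.04 CPM in rev. Elf3 was lowest at 4h in clone 4 (mean 8.57 CPM), and Jup stood above its 0h level at 4h in both clones.

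Of 13 intermediate filament genes other than keratins 11 were tested, and 4 rose at 4h against 0h. Nefm, a neurofilament chain, rose by 4.94 (adjusted p = 1.4e-05), Vim, the vimentin of mesenchymal and many cultured cells, by 1.32 (adjusted p = 0.0015), and the nuclear lamin gene Lmna by 0.97 (adjusted p = 0.022). At rev against 4h Nefm fell by 2.70 (adjusted p = 0.00042) and Vim by 0.99 (adjusted p = 0.013), the comparison in which the 4 keratins were higher. The mean level of Vim in clone 4 was 47.0 CPM at 0h, 188 CPM at 4h and 63.6 CPM in rev, against 40.2 to 54.0 CPM in clone 8, and its 4h against 0h change differed between the clones by -1.57 (SE 0.19, adjusted p = 6.8e-07).

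Among 29 genes of epithelial adhesion and epithelial transcription factors, 24 were tested, and 3 fell at 2h against 0h. Elf3, an ETS factor of epithelia, fell by 1.40 at 2h against 0h (adjusted p = 0.00024) and rose by 1.14 at rev against 4h (adjusted p = 0.0027). Cldn4, a tight junction claudin, fell by 0.80 (adjusted p = 0.00046) and Cdh1, the E-cadherin of adherens junctions, by 0.24 (adjusted p = 0.027) at 2h against 0h. Thus the keratins were higher at 2h in the libraries in which Elf3, Cldn4 and Cdh1 were lower. Of the EMP and PMP22 family, which includes Emp1, 2 of 5 listed genes were tested, and Tmem47 fell at 4h against 0h by 0.67 beside the rise of Perp.

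The genes whose pattern over the 16 libraries was most like that of the 8 tested genes were ranked by Pearson r of log2 CPM with each clone mean subtracted, among 8054 candidates and with no test, since all share the same libraries and depth. Among the 5 nearest to the mean pattern were Jak2 (r = 0.93), Ddi2 (0.92), Wdr45 (0.91) and Ahnak (0.91). The nearest to Krt8 alone were Wdr45 (0.95), Akap8 (0.91), Sprtn (0.90), Ppm1l (0.90) and Ehd1 (0.89). Wdr45, a WD-repeat protein of autophagy, had a log2 change of 0.74 (SE 0.12) at 2h against 0h, -0.40 (SE 0.12) at 4h against 2h and 0.53 (SE 0.12) at rev against 4h. These were smaller than the changes of Krt8 in the same comparisons.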

How the data were processed

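The deposited table holds raw counts per Ensembl mouse gene for 16 libraries. The authors' reads were converted with bcl2fastq 2.19.1 and aligned with STAR 2.5.3a to mm10, per the submitters' processing notes; the counting program, its annotation and its use of strand are not given in the sources used here. Gene symbols were matched to GENCODE on GRCm38, and 233 rows had no match.

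Tests used edgeR 4.0.16 in R 4.3.3: filterByExpr by group (minimum count 10, minimum total 15), TMM factors, and the quasi-likelihood test with Benjamini-Hochberg adjustment over 12742 genes, called at an adjusted p under 0.05. Group contrasts were fitted over all libraries with the clone as a term. Differences between clones came from a model with 1 mean for each of the 8 group-by-clone cells. CPM values use TMM-scaled sizes of the kept genes, and log2 CPM a prior count of 2. The script was tested on simulated data. DESeq2 1.42.0, other scalings, no filter, no clone term, a replicate block and leaving out each library were alternatives.

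The members, gene lists and tests were chosen with earlier results of these data known. All 10 members are named. Of the lists, up to 4 called genes per list and contrast were eligible by log2 change, with a mean count of at least 50 in the higher group. Genes named outside that rule (Anxa2, Cav2, Cavin2, Cdx2, Dab2, Hand1, Krt42, Pacsin3, Plac1, Prl3d1) were chosen after their values were seen. Library numbers within a clone were checked for pairing across groups, after group means were removed. Libraries of a clone correlated at 0.375 on average with the same number and at 0.384 with different numbers. Same-numbered libraries were thus no more alike than others of their clone. With clone means also removed, same-numbered libraries correlated at -0.16, but that step itself pushes values below 0 and cannot decide pairing. The 2 libraries of each pair were distinct (chi-square statistic divided by its degrees of freedom between 1.30 and 3.24). The limit of 3 counts and the exact 95% intervals cover counting error only. Some genes that the rule covers are not reported here.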

Additional observations from a re-analysis of the deposited data

Results flagged for a closer look

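A difference between the clones under the same contrast marked 12 values, each tested as clone 8 minus clone 4 on the log2 scale. In the change from 0h to 2h these were Krt8 (-1.96), Krt18 (-2.02), Lad1 (-2.25), Cavin1 (-2.73) and Dsp (-1.22). In the change from 0h to 4h they were Lad1 (-3.62), Emp1 (-3.20), Cavin1 (-4.76) and Dsp (-0.78). In the change from 4h to rev they were Emp1 (4.53), Cavin1 (2.77) and Dsp (-0.81), in a contrast that had served to choose Emp1. Emp1 and Dsp had log2 changes of opposite sign in the 2 clones, and Cavin1 was below its 4h level in rev in clone 4 and above it in clone 8. No library stood apart from the other 3 of its group in the 36 groups of 4 values examined. The limit used would mark about 1 of 20 groups by chance if the 4 libraries were alike. Each group held 2 libraries of each clone, and differences between the clones widen the range. The check could therefore hardly mark a single library, and nothing is concluded from it.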

How the results depend on the processing

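Of 1188 alternative values of the log2 changes of the 8 tested genes, 1157 lay within 1 SD of the reported value, 31 moved further and 0 called values changed sign. The SD was that of log2 CPM over the libraries of a group, both clones together, pooled over the groups compared. Differences between the clones widen it, so a large shift can still lie within 1 SD. The share within 1 SD is therefore no measure of stability. The moved values came from each clone taken alone (Emp1, Cavin1, Lad1, Dsp and Krt18) and from Emp1 at 4h against 0h, which was -0.04 without library 1 of clone 4 at 4h. Without the clone term the count of member genes called was 1 at rev against 0h, 2 at 4h against 0h and 0 in the other 4 group comparisons. Without a filter it was 4 at 4h against 0h and 2 at rev against 2h. The clone difference at 2h against 0h was called for 2 genes with library totals and for 2 at an adjusted p under 0.01, against 5.
Leaving out each library in turn, with a lone remaining library of a clone assumed to vary like the others, gave 4 to 6 genes at 2h against 0h, 2 to 3 at 4h against 0h, 4 to 6 at 4h against 2h, 2 to 6 for the clone difference at 2h, 3 to 5 for that at 4h and for the clones at 0h, and the reported counts elsewhere.
The counts of partner genes moved more. Library totals gave 4 at 2h against 0h, 12 at 4h against 0h, 6 at 4h against 2h and 4 at rev against 0h; this scale shifts the median of all genes by 0.11, -0.04, -0.14 and -0.24 in these comparisons, -0.20 at rev against 4h and -0.35 at rev against 2h. Without a clone term 4, 10 and 0 partner genes were called in the first 3 of these, 3 at rev against 4h, 2 relative to 0h and 1 relative to 2h. An adjusted p under 0.01 gave 6, 14, 3, 4, 4 and 1 in the same order. No filter gave 20 at rev against 4h and 5 at rev against 2h. Leaving out libraries gave 6 to 14 at 2h against 0h, 15 to 27 at 4h against 0h, 4 to 16 at 4h against 2h, 4 to 18 at rev against 4h, 5 to 10 at rev against 0h and 1 to 2 at rev against 2h. At 2h against 0h it was 6 or 7 without either clone 4 library of 0h or library 1 of clone 8 at 2h, and at 4h against 0h it was 15 without library 1 of clone 4 at 4h. At 4h against 2h it was 4 to 6 without any 1 of the 4 clone 4 libraries compared. At rev against 4h it was 4 to 6 without any 1 of the 4 clone 4 libraries compared and 18 without library 1 of clone 8 at 4h. At rev against 0h it was 5 without library 1 of clone 4 in rev, and at rev against 2h 1 without either clone 4 library in rev or library 2 of clone 8 at 2h.
With a replicate block the partner genes called at rev against 4h were 6, against 11, and the member genes called were 5, 2, 6, 4, 6 and 1 in the 6 group comparisons; library numbers mark no stated pairing. The cause was not tested for any of these. Depth limits Krt7, Krt19 and Anxa3, with 0 to 8 reads in clone 8 libraries, and Cav1 with 0.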
